A study of Homo sapiens with 10 samples.

Results

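Large-subunit cytosolic ribosomal protein genes, 45 in number, were followed through peak lists of FLAG-tagged MYC from U2OS cells, a human osteosarcoma line. Their symbols came as a list, chosen with earlier results of these data known, and all 45 were found among 19974 protein-coding genes of the RefSeq table. A gene was counted as bound when a peak summit lay within 1 kb of either end of its span. The cells lacked their own MYC gene and carried a FLAG-tagged copy, wild type (WT) or mutated (3A or 7A), that doxycycline switches on. The labels do not say which residues the mutations change or whether the lines were single clones. Each induced protein had 2 immunoprecipitated libraries, taken after 24 h with 1 µg/mL doxycycline, with 10% mouse NIH3T3 cells added as a reference genome. One peak list was deposited per protein, with no replicate lists, so no spread between replicates and no test between proteins could be given. Uninduced WT immunoprecipitates and both inputs, which complete the 10 libraries, had no peak list used here, and peak lists hold no expression against which the cell line could be checked.

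The large subunit of the cytosolic ribosome joins amino acids into protein. Its ribosomal proteins fold ribosomal RNA, line the tunnel through which the new chain leaves, and build stalks that receive elongation factors. Their genes are short, are transcribed at high rates in growing cells, and mostly begin in a run of pyrimidines that carries into the mRNA as the 5′ terminal oligopyrimidine motif. MYC binds DNA with MAX, prefers the E-box CACGTG, and is known for driving ribosome production.

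WT MYC bound 40 of the 45 genes (88.9%), 3A bound 28 (62.2%) and 7A bound 5 (11.1%). Over all protein-coding genes the shares were 16.8%, 3.51% and 0.125%. All 28 members bound by 3A and all 5 bound by 7A were also bound by WT, as were 630 of the 701 protein-coding genes bound by 3A and 21 of the 25 bound by 7A. By pattern, 24 genes were bound by WT and 3A, 11 by WT alone, 4 by all 3 proteins and 1, RPL32, by WT and 7A, while 5 were bound by none. The 7A count fell to 3 when peaks under a −log10 q of 10 were left out. Of the WT-bound genes 70.0% were therefore also bound by 3A and 12.5% by 7A, where 18.8% and 0.626% of all WT-bound protein-coding genes were. The list lengths frame these counts: WT had 4749 peaks, 3A had 845 and 7A had 64. No test was run on these shares, and all protein-coding genes include those silent in these cells.

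**Figure D1:**
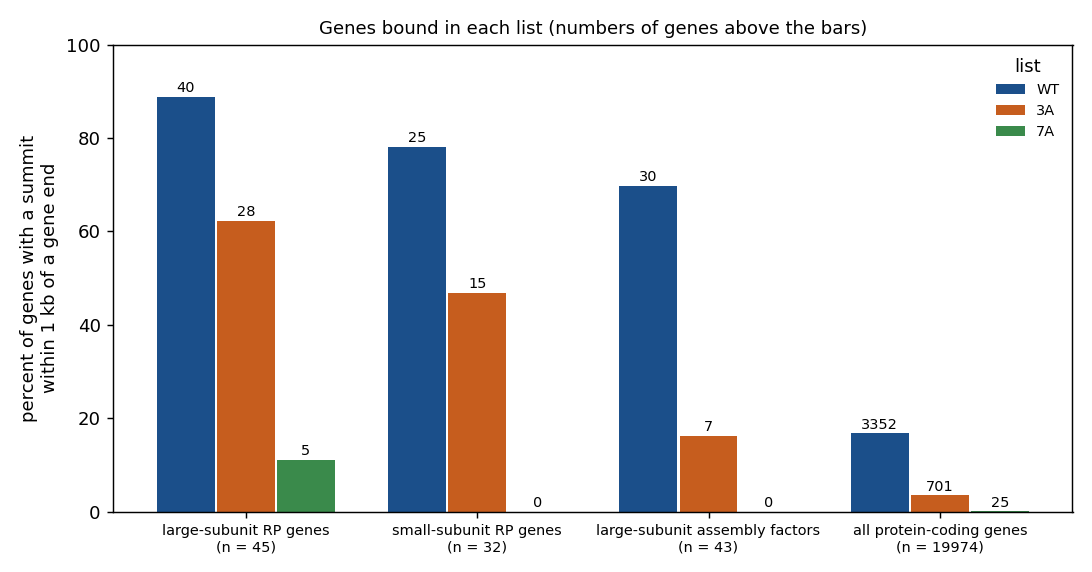
Percent of genes (vertical axis) with a summit within 1 kb of a gene end in the WT, 3A and 7A lists, for large-subunit ribosomal protein genes, small-subunit ribosomal protein genes, large-subunit assembly factors and all protein-coding genes, with numbers of bound genes above the bars. Large-subunit genes stand at 40, 28 and 5 of 45, and the 7A bar is empty for the small-subunit and assembly factor lists.

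Start regions of 13 members are shown as examples, since most of the summits described below lie just past the annotated start. Each sequence runs 15 bases to either side of the start boundary, 5′ to 3′ on the gene's own strand (RefSeq, GRCh38.p14), and capitals mark the longest run of C and T that reaches within 5 bases of it.
RPL36 (chr19:5690280-5690309): ccgcgcggcgccagCCCTTCCgccacggcc
RPL36A (chrX:101390996-101391025): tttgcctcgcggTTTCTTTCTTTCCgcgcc
RPL18 (chr19:48619164-48619193): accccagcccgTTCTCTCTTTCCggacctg
RPL29 (chr3:51995881-51995910): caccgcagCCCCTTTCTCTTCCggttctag
RPL10A (chr6:35468386-35468415): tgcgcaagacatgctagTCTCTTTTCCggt
RPL37A (chr2:216498829-216498858): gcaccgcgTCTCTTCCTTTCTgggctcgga
RPL34 (chr4:108620561-108620590): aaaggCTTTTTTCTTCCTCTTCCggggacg
RPL24 (chr3:101686704-101686733): ttcccatgaTTCTCTCTTTCTTTTCgccat
RPL41 (chr12:56116618-56116647): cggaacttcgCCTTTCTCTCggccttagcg
RPLP1 (chr15:69452803-69452832): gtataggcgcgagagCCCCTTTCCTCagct
RPLP2 (chr11:809952-809981): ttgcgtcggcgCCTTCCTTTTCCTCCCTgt
RPL27A (chr11:8682777-8682806): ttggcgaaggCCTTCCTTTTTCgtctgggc
RPL28 (chr19:55385917-55385946): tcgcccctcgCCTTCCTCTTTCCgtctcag
The first 9 genes were bound by WT and 3A, RPLP1 and RPLP2 by WT without 3A, and RPL27A and RPL28 by none. A run thus occurs in examples of all 3 classes, but the examples do not represent the members. Apart from RPL36, all of those shown have a run of at least 8 bases. Short runs, not shown, also occurred in each class: 2 bases at RPL27 (bound by WT and 3A), 5 at RPL10 (WT without 3A) and 5 at RPL6 (none). The RPL6 run was read at its first listed start, while its peaks, described below, lie near another listed start. The other unbound members with a promoter record, RPL13A, RPL27A and RPL28, had runs of 14, 12 and 13 bases. Promoter records existed for 38 members, and RPL5, RPL7, RPL8, RPL23, RPL23A, RPL30 and RPL37 had no entry. Taking the first listed start of each gene, the run was at least 8 bases long in 26 of 38 members (68.4%), with a median of 11 bases, and in 11.0% of 15813 protein-coding genes, with a median of 3.0.

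Promoters of 4 members follow, as the 250 bases before the start, as examples of how the searched motifs lie in promoters with and without a peak. RPL36 had high folds in the WT and 3A lists, RPL10A was bound by all 3 proteins, RPLP1 had the lowest WT fold, and RPL13A was not bound. Capitals mark any match on either strand to CACGTG (canonical E-box), CACGCG (variant E-box), CCGGAAG (ETS core), GGGCGG (GC box) or TATAA (TATA core); none of these motifs contains another.
RPL36 (chr19:5690045-5690294, plus strand): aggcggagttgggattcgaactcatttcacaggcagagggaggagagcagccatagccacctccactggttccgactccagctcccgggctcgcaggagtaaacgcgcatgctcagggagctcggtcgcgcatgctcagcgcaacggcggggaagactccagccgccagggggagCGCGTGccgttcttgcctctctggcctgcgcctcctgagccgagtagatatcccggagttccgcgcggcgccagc
RPL10A (chr6:35468151-35468400, plus strand): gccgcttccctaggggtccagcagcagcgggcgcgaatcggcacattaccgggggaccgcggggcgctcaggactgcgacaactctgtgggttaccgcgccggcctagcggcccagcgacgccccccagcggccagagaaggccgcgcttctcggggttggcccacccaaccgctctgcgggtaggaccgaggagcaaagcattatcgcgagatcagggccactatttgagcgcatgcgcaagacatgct
RPLP1 (chr15:69452568-69452817, plus strand): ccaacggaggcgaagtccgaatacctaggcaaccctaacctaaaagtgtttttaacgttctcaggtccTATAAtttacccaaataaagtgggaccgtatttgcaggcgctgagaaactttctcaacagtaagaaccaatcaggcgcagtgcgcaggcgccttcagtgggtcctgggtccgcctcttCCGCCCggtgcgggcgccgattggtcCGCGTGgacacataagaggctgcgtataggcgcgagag
RPL13A (chr19:49487358-49487607, plus strand): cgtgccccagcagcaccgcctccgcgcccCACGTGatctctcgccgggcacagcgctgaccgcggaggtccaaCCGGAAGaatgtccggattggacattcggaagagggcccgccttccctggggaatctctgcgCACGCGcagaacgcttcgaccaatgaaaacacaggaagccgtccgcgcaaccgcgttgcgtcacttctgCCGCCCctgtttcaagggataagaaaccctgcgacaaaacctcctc
Of these 4 promoters CACGTG is in that of RPL13A, and the RPL10A promoter holds none of the 5 motifs in the 250 bases shown.

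Over the 38 promoters, from 250 bases before to 50 after the start, CACGTG was found in 2 (5.26%), against 8.87% of protein-coding genes. Those were RPL19, which WT bound, and RPL13A, which it did not. CACGTG was thus in 0 of the 23 promoters of 3A-bound members and 1 of the 11 of members bound by WT without 3A. The variant CACGCG was in 9 (23.7%, against 14.8%), among them 5 of the 11 WT-bound members that 3A did not bind and 3 of the 23 it did. CCGGAAG was in 12 (31.6%, against 14.2%), GGGCGG in 20 (52.6%, against 58.5%) and TATAA in 6 (15.8%, against 16.7%). Split the same way, GGGCGG was in 15 of 23 and 2 of 11, CCGGAAG in 7 of 23 and 3 of 11, and TATAA in 3 of 23 and 3 of 11, with no test run on any of the 5 motifs. These matches are letters in a window, and the window ends before most of the summits.

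Among the bound members with a listed start, the WT summit lay downstream of that start in 33 of 34. The exception was RPL18, with its summit 70 bp upstream. RPL6, left out here because the rule did not count it as bound, had WT and 3A summits 150 and 172 bp upstream of a listed start. The median position was 92.5 bp downstream of the nearest listed start (quartiles 65 to 124 bp, range from -70 to 212 bp). Over 2614 protein-coding genes with a WT summit within 1 kb of a start the median was 11 bp, with quartiles of -167 and 142 bp, and 51.7% of summits were downstream. Genes were counted here, so a summit near several genes counts for each. All 3352 WT-bound protein-coding genes rested on 2795 peaks, and the 40 members on 40. The effect of shared summits on these positions was not tested. The positions of the bound members were thus narrower in range and, apart from RPL18, lay on the gene's side of the start. In the 3A list 22 of 23 bound members had a downstream summit, with a median of 98.0 bp, where the median over 555 genes was -7.0 bp. The 4 members bound by 7A with a listed start had summits 62 to 180 bp downstream. Exon and intron boundaries were not in the tables used, so these positions are given by distance alone.

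**Figure D2:**
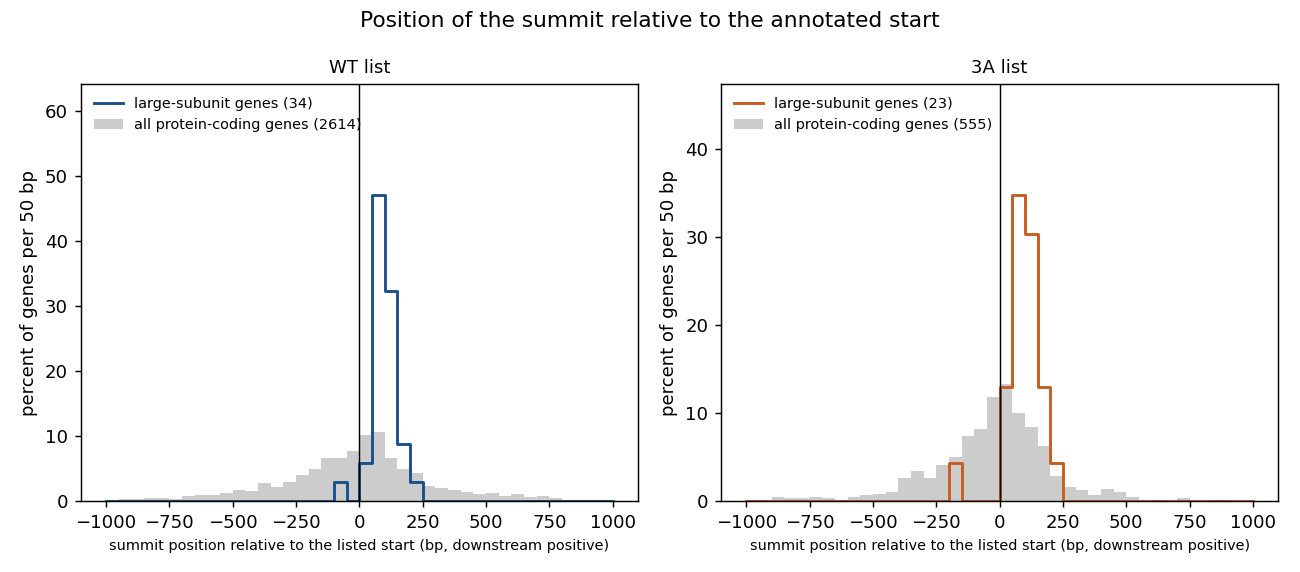
Position of the strongest summit relative to the nearest listed start (horizontal axis, bp, downstream positive) as percent of genes per 50 bp (vertical axis), for the large-subunit members (line) and all protein-coding genes (grey bars) in the WT and 3A lists. The bound members lie between 0 and 250 bp downstream, except RPL18, while all genes spread to both sides of the start. RPL6, not counted as bound, is not drawn.

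Fold enrichments are the authors' own, the ratio of immunoprecipitated fragments at the summit to the local background, and describe each list on its own scale. The number of fragments stacked at each summit was recovered from the deposited fold and p-value, and brackets give the exact Poisson 95% interval of the fold, which covers counting error of the fragments only. WT folds of the 40 bound members ran from 4.02 to 15.6 with a median of 6.82, against a median of 5.13 over all WT-bound protein-coding genes. Of the 40, 34 were in the stronger 50% of the WT list and 12 in its strongest 10%, where 49.6% and 10.5% of all WT-bound genes were. The 3A folds of 28 members ran from 2.57 to 7.60 with a median of 4.09, against 3.36 over all 3A-bound genes. Of the 28, 24 were in the stronger 50% of the 3A list, where 48.1% of all 3A-bound genes were. Fragment stacks at the WT summits ran from 41 to 320 with a median of 136, on local backgrounds of 5.76 to 35.3 (median 17.2, against 14.3 for all WT-bound genes). Their −log10 q ran from 18.1 to 228 and the peaks from 541 to 2079 bp in width, and the 3A peaks had values from 9.20 to 86.3 and widths of 440 to 1233 bp. Peak positions below are those of the deposited WT list (hg38). Read totals of the libraries were not used here.

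**Figure D3:**
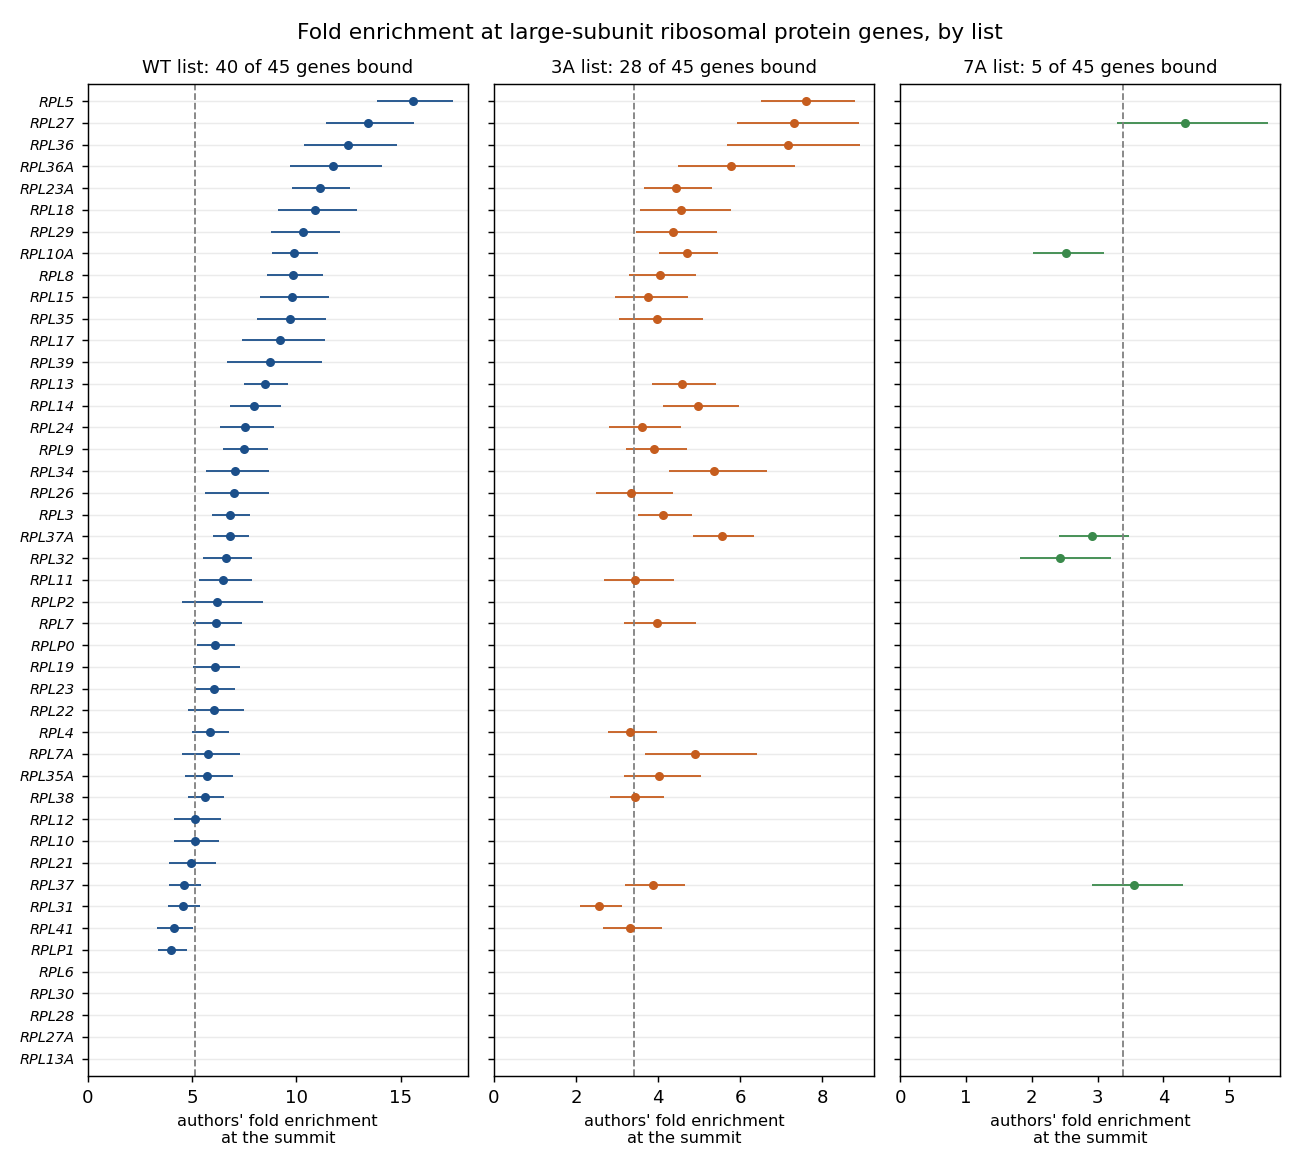
Authors' fold enrichment at the strongest summit of each bound large-subunit gene (horizontal axis) in the WT, 3A and 7A lists, with exact Poisson 95% intervals of the fragment count as bars and the median of all peaks of that list as a dashed line. Genes are ordered by WT fold, from RPL5 at 15.6 to RPLP1 at 4.02, and the 5 rows without points are the unbound genes.

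The genes of the 5S particle, RPL5 and RPL11, were both bound by WT and 3A. Their proteins carry 5S RNA into the large subunit, and bind MDM2 when ribosome assembly is disturbed. RPL5 had the highest WT fold of all members, 15.6 (13.9 to 17.5), at chr1:92831838-92832654, which was rank 61 of 4749. Its 3A fold of 7.60 (6.52 to 8.80) was rank 4 of 845, and it had no 7A peak within 237228 bp. RPL11 was lower in both lists, with a WT fold of 6.51 (5.32 to 7.88) and a 3A fold of 3.45 (2.67 to 4.38), its WT peak lying at chr1:23691667-23692393. The RPL5 summit also lay within 1 kb of the end of DIPK1A, so the peak cannot be given to either gene alone.

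Around the catalytic centre, RPL3, RPL8 and RPL10A were bound by WT and 3A, and RPL10 by WT alone. RPL3 and RPL8 reach towards the peptidyl transferase centre, and RPL10A forms the L1 stalk beside the exit site. RPL10A had a WT fold of 9.90 (8.85 to 11.1), with 320 stacked fragments, the most of any member, at chr6:35467987-35469712. Its 3A fold was 4.70 (4.03 to 5.46) and its 7A fold 2.52 (2.02 to 3.10), with the 3 summits at 64, 67 and 62 bp past the start. RPL8 had folds of 9.86 (8.57 to 11.3) in WT and 4.05 (3.30 to 4.92) in 3A, and RPL3 of 6.82 (5.97 to 7.76) and 4.12 (3.50 to 4.82). The WT peaks lay for RPL8 at chr8:144791724-144792891 and for RPL3 at chr22:39319107-39320290. RPL10, a late-joining protein near the tRNA sites, had a WT fold of 5.14 (4.15 to 6.30) in the widest WT peak of the set, 2079 bp, and its nearest 3A summit was 360652 bp away.

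None of the 4 genes of the P stalk and its base had a 3A or 7A summit within 1 kb, although all were bound by WT. RPLP0, RPLP1 and RPLP2 form the stalk that recruits elongation factors, and RPL12 sits at its base. Their WT folds were 6.10 (5.25 to 7.05) for RPLP0, 4.02 (3.38 to 4.74) for RPLP1, 6.22 (4.50 to 8.38) for RPLP2 and 5.16 (4.13 to 6.38) for RPL12. All 4 lay below the median of the bound members. A 3A summit lay 1902 bp from RPLP0, with a fold of 3.81, but its peak was at the end of GCN1. The WT peaks of the stalk genes were those of RPLP0 at chr12:120200635-120201701, RPLP1 at chr15:69452684-69453536, RPLP2 at chr11:809340-810277 and RPL12 at chr9:127450336-127451647. RPLP2 rested on 41 stacked fragments, the fewest of any bound member.

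All 8 genes of the exit tunnel and its rim were bound by WT, and 5 of them by 3A. RPL4 extends a loop into the tunnel, and RPL23A and RPL35 sit where the signal recognition particle and the translocon dock. RPL23A had the highest WT fold here, 11.1 (9.80 to 12.6), and a 3A fold of 4.43 (3.66 to 5.31). RPL35 followed with 9.68 (8.13 to 11.4) and 3.97 (3.05 to 5.08), RPL26 with 7.02 (5.61 to 8.67) and 3.33 (2.50 to 4.36), and RPL4 with 5.84 (5.02 to 6.76) and 3.33 (2.77 to 3.96). The WT peaks bound also by 3A were those of RPL4 at chr15:66504362-66505585, RPL23A at chr17:28719778-28720595, RPL26 at chr17:8382635-8383982, RPL31 at chr2:101001923-101002687 and RPL35 at chr9:124861006-124862410. RPL31 was lowest in both lists, at 4.58 (3.86 to 5.39) and 2.57 (2.11 to 3.11). RPL17 (9.22, 7.38 to 11.4), RPL39 (8.73, 6.67 to 11.3) and RPL19 (6.09, 5.05 to 7.29) were bound by WT only. Their WT peaks lay at chr18:49491956-49492579, chrX:119791113-119792024 and chr17:39199890-39200974. RPL17 and RPL39 had the highest WT folds of any member without a 3A summit, which was 20713284 bp away from RPL17 and 17187011 bp from RPL39.

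RPL4 and RPL39 each had 2 WT summits within reach of the rule. At RPL4 the stronger summit lay 113 bp inside its start, and a second, with a fold of 4.80, lay 215 bp past its other end. At RPL39 the second summit had a fold of 2.81 and lay 797 bp outside the span. Neither second summit decided whether the gene was counted.

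Of the other 5 proteins shared by bacteria, archaea and eukaryotes, RPL7 and RPL9 were bound by WT and 3A, RPL23 by WT, and RPL13A and RPL27A by none. RPL9 had folds of 7.50 (6.49 to 8.63) and 3.90 (3.21 to 4.70), with the 2 summits 4 bp apart. RPL7 had folds of 6.14 (5.05 to 7.40) and 3.97 (3.16 to 4.92). Its WT summit lay 977 bp inside the gene span, the member nearest to the limit of 1 kb, and RPL15 came next at 745 bp, while the nearest member outside it was RPL13A at 3781 bp. RPL7 and RPL9 had their WT peaks at chr8:73292991-73293732 and chr4:39458142-39459247. RPL23, a protein of the face that meets the small subunit, had a WT fold of 6.05 (5.15 to 7.06), and its nearest 3A summit was 47284 bp away.

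The remaining 22 genes encode proteins found in archaea and eukaryotes or in eukaryotes alone, and 19 of them were bound by WT, 16 by 3A and 4 by 7A. RPL27, RPL36 and RPL36A led both lists. RPL27 had a WT fold of 13.4 (11.4 to 15.6) and a 3A fold of 7.30 (5.93 to 8.89), RPL36 of 12.5 (10.4 to 14.8) and 7.16 (5.67 to 8.92), and RPL36A of 11.8 (9.71 to 14.1) and 5.79 (4.49 to 7.34). Their WT peaks spanned chr17:42998085-42999237, chr19:5690049-5690822 and chrX:101390755-101391589. After RPL5 they held the highest 3A folds of all members, at ranks 6, 8 and 21 of 845. RPL36A lies next to BTK and is the first part of the read-through gene RPL36A-HNRNPH2, so its peak belongs to a shared region. RPL18 (10.9, 9.12 to 12.9) and RPL29 (10.3, 8.77 to 12.1) had 3A folds of 4.57 (3.56 to 5.77) and 4.36 (3.46 to 5.42), with WT peaks at chr19:48618443-48619702 and chr3:51995321-51996119.

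Below these, RPL15 had a WT fold of 9.81 beside 3.76 in the 3A list, RPL13 8.50 beside 4.58, RPL14 7.98 beside 4.98 and RPL24 7.56 beside 3.61. In the genome these WT peaks were found for RPL15 at chr3:23916790-23917774, RPL13 at chr16:89560008-89561631, RPL14 at chr3:40457126-40457916 and RPL24 at chr3:101686258-101687029. RPL15 is among the genes mutated in Diamond-Blackfan anaemia, and RPL24 forms a bridge between the subunits. In the same order of lists RPL34 had 7.06 beside 5.36, RPL7A 5.78 beside 4.91, RPL35A, another anaemia gene, 5.72 beside 4.03, RPL38 5.61 beside 3.43, and RPL41 4.13 beside 3.31. The corresponding WT peaks were those of RPL34 at chr4:108620351-108621224, RPL7A at chr9:133347617-133348739, RPL35A at chr3:197949998-197950538, RPL38 at chr17:74203482-74204223 and RPL41 at chr12:56116507-56117125. RPL38 is known for its part in translating Hox mRNAs in the mouse embryo. The order of the genes was not the same in the 2 lists: RPL34 and RPL7A were at ranks 35 and 67 of 845 in the 3A list and at ranks 1021 and 1803 of 4749 in the WT list. RPL22 (6.05, 4.82 to 7.50) and RPL21 (4.94, 3.92 to 6.15) were bound by WT only, and RPL41, which encodes the smallest ribosomal protein, had the lowest WT fold of any 3A-bound member.

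7A bound RPL10A, RPL27, RPL32, RPL37 and RPL37A, 5 of the 25 protein-coding genes it bound in all. Those 5 peaks had folds of 4.33 (3.30 to 5.59) at RPL27, 3.56 (2.91 to 4.30) at RPL37, 2.91 (2.42 to 3.48) at RPL37A, 2.52 at RPL10A and 2.44 (1.82 to 3.21) at RPL32. RPL27 was rank 5 of 64, whereas RPL37A, RPL10A and RPL32 were ranks 52, 59 and 61, near the bottom of the 7A list. Of the 5 members, 2 were in the stronger 50% of the 7A list, where 24.0% of all 25 7A-bound genes were. The RPL32 peak was also the weakest by the authors' −log10 q, 3.81, the lowest value in the 7A list, against 8.73 at RPL10A and 14.5 to 21.2 at the other 3.

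The 7A peaks were 379 to 519 bp wide and lay within the WT peaks of RPL10A and RPL27 given above, of RPL32 at chr3:12840947-12841892, RPL37 at chr5:40834704-40835793 and RPL37A at chr2:216498641-216499504. The same 5 genes did not lead the WT list. RPL27 was rank 104 and RPL10A rank 344 of 4749, while RPL37A (WT fold 6.81, 5.99 to 7.71) was rank 1148, RPL32 (6.61, 5.52 to 7.85) rank 1242 and RPL37 (4.63, 3.90 to 5.45) rank 2943. In the 3A list RPL37A had a fold of 5.56 (4.86 to 6.33) and RPL37 of 3.87 (3.19 to 4.65), and RPL32 had no summit within 277477 bp. RPL37A, with 223, had the most stacked 3A fragments of any member, followed by RPL5 with 175 and RPL10A with 172. Local background at the 7A summits of RPL37A and RPL10A, 40.6 and 33.6, was above the 7A list's median of 18.3. Its part in these peaks was not tested.

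Summits of the different proteins lay close together at these genes. For the 28 members bound by WT and 3A every pair of peaks overlapped, the summits were 3 to 160 bp apart with a median of 24.5 bp, and 25 of 28 were within 100 bp. Over the 630 protein-coding genes bound by both, the median was 49.5 bp and 69.8% were within 100 bp. RPL10A had its WT and 3A summits 3 bp apart, whereas RPL37 had them 160 bp apart, the WT summit 78 bp inside the span and the 3A summit 82 bp outside it. At RPL37 the 7A summit lay 8 bp from that of 3A. The 7A peak lay wholly inside the WT peak at all 5 genes.

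WT folds of the members that 3A also bound ran from 4.13 to 15.6 with a median of 7.53, and those of the 12 it did not bind from 4.02 to 9.22 with a median of 6.07. The ranges overlap. All 7 members with a WT fold of at least 10 were bound by 3A, as were 10 of 12 between 7 and 10, 8 of 16 between 5 and 7, and 3 of 5 below 5. Among other protein-coding genes the shares in the same ranges were 47.1%, 33.8%, 14.9% and 10.7%. Each range of WT fold thus held a higher 3A share among the members than among the other genes, without a test, and with as few as 5 members in a range. Across the 28 members the WT and 3A folds had a Pearson r of 0.761 and a Spearman rho of 0.682, given as a description. The points share their local background, whose recovered values had an r of 0.974 between the lists.

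**Figure D4:**
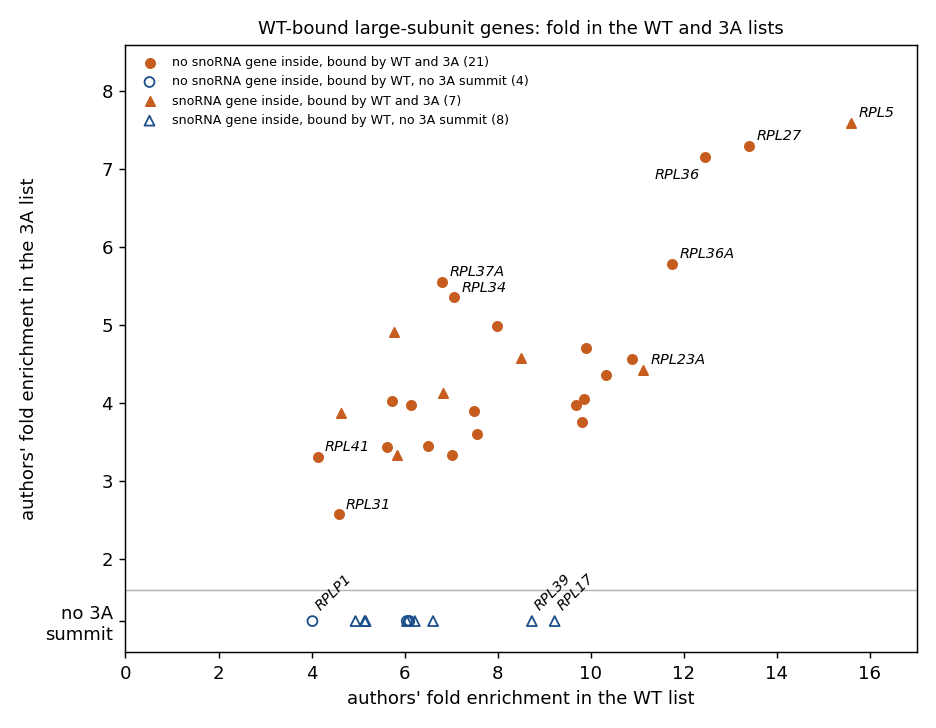
Authors' fold enrichment in the WT list (horizontal axis) against that in the 3A list (vertical axis) for the 40 WT-bound large-subunit genes, with the 12 genes without a 3A summit in the strip at the bottom, and triangles for genes that hold a snoRNA gene. RPL5, RPL27 and RPL36 lie at the upper right, and RPL17 and RPL39 are the farthest right in the strip.

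Many ribosomal protein genes carry small nucleolar RNA (snoRNA) genes, whose products guide the chemical modification of ribosomal RNA, and 19 members have at least 1 inside their span. Of these 19, 15 were bound by WT, 7 by 3A and 2 by 7A. Of the 26 without one, 25 were bound by WT, 21 by 3A and 3 by 7A. Among WT-bound members 3A thus bound 7 of 15 with a snoRNA gene and 21 of 25 without. The hosts bound by both were RPL5, RPL3, RPL4, RPL7A, RPL13, RPL23A and RPL37, and those bound by WT without 3A were RPL10, RPL12, RPL17, RPL21, RPL23, RPL32, RPL39 and RPLP2. Median WT folds were 6.22 for the bound members with a snoRNA gene and 7.06 for those without, and median 3A folds were 4.43 and 4.03. The split was made with the binding known and was not tested.

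The 5 members not counted as bound fell into different cases. RPL6 had a WT peak with a fold of 5.92 (4.93 to 7.04) and a 3A peak with 3.77 (3.06 to 4.61), both inside the gene, with summits 4254 and 4276 bp from the end of the span. They were 150 and 172 bp upstream of a second listed start of RPL6, so the rule missed them only because that start lies inside the span. The nearest WT summit to RPL13A was 3781 bp away, and that to RPL28, 4825 bp away, lay at the end of UBE2S. RPL27A had its nearest WT summit 88489 bp away and RPL30 71748 bp away. In the 3A list the nearest summits were 495014 bp from RPL13A, 5398610 bp from RPL28, 771506 bp from RPL27A and 967537 bp from RPL30. No member without a WT peak had a 3A or 7A summit within 1 kb.

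Ends shared with other genes limit how far a peak can be given to the ribosomal protein gene. The strongest WT summit lay within 1 kb of the end of another protein-coding gene at 10 of the 40 bound members: RPL4 (ZWILCH), RPL5 (DIPK1A), RPL7A (MED22), RPL9 (LIAS), RPL12 (LRSAM1), RPL17 (the read-through gene RPL17-C18orf32), RPL18 (SPHK2), RPL35 (ARPC5L), RPL36A and RPLP2 (PIDD1). The other 30 had no such protein-coding neighbour, but at 6 of the 40, RPL10, RPL19, RPL34, RPL37A, RPL39 and RPLP0, the end of a long non-coding RNA gene lay within the same distance. The 40 members rested on 40 different WT peaks. Members lay on 18 chromosomes. Chromosomes 3 and 17 held 6 each, of which WT bound 6 and 6 and 3A bound 5 and 4.

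Set beside related genes, the small-subunit ribosomal protein genes were bound by WT at 25 of 32 (78.1%), by 3A at 15 (46.9%) and by 7A at 0. Their highest WT folds were 10.6 at RPS24, 9.90 at RPS23, 9.32 at RPS19 and 9.25 at RPSA, with a median of 6.26. Assembly factors of the large subunit, which build it in the nucleolus but are not part of it, were bound by WT at 30 of 43 (69.8%), with a median fold of 7.25, by 3A at 7 and by 7A at 0. BOP1 (13.1), EBNA1BP2 (11.2) and DDX54 (10.4) had high WT folds and no 3A summit, and GNL3 (13.0) had a 3A fold of 2.98. WT thus bound 88.9% of large-subunit genes, 78.1% of small-subunit genes and 69.8% of assembly factors. Of the genes that WT bound, 3A bound 28 of 40, 14 of 25 and 6 of 30 in that order. Among all WT-bound protein-coding genes 3A bound 18.8%. Among paralogs of the members, WT bound RPL7L1 (11.4), RPL22L1 (5.61) and RPL36AL (5.37), and 3A bound RPL7L1 (3.69) and RPL22L1 (3.46). RPL3L, RPL10L, RPL26L1 and RPL39L were bound in none of the 3 lists.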

How the data were processed

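Per the submitters' processing notes, cutadapt, Bowtie2, SAMtools, Picard and MACS2 were used, with the builds hg19, mm10 and hg38. No source used here gives their versions or roles, the control, or how the 2 libraries and the mouse reads entered each list. The authors deposited peak lists in the narrowPeak layout, with a fold enrichment (a ratio to local background), a −log10 p-value and a −log10 q-value per peak. The lists' positions were read as hg38. Gene spans and promoters came from RefSeq tables of GRCh38.p14, leaving out chromosome Y, and 38 of 45 members had a promoter record. Strand and starts came from the promoter records, the nearest listed start being used for distances and the first listed for motifs. The strongest summit within 1 kb stood for a gene.

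Fragments at a summit were recovered from fold = (pileup + 1)/(background + 1) and a Poisson tail. A whole-number pileup gave the deposited p-value, to 0.02 of the change that 1 fragment makes, at all 4749 WT peaks, all 845 3A peaks and 63 of the 64 7A peaks. Tested on 1000 simulated peaks, 100% were recovered, and the window rule found 168 of 168 simulated bound genes. Intervals cover counting error only. No test across genes was run, since there are no replicate lists. Members, gene lists, motifs and comparisons were chosen with earlier results of these data known. All 45 members were to be named, other genes only where they share a summit with a member or have one of the 4 highest WT folds of a comparison list. GCN1, UBE2S and the unbound paralogs were named outside that rule, after their values were seen, and some genes within it are not reported here. The software was pandas 2.3.3, matplotlib 3.10.9, scipy 1.17.1 and numpy 2.4.6 under Python 3.11.15.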

Additional observations from a re-analysis of the deposited data

How the results depend on the processing

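Counts of members bound by WT and 3A stayed within 1.5 times of the main count, and that of 7A did not. WT bound 38 members with a window of 500 bp, losing RPL7 and RPL15, and 43 with 5 kb, gaining RPL6, RPL13A and RPL28. It bound 40 when peaks under a −log10 q of 5 or 10 were dropped, or when any base of the peak counted, and 35 by the listed start only, gaining RPL6 and losing 6 members that have no start record. For 3A the same settings gave 24 to 30, RPL26 being lost at the stricter q and RPLP0 and RPL6 gained at 5 kb. For 7A the 5 genes became 4 at a −log10 q limit of 5, without RPL32, and 3 at a limit of 10, without RPL32 and RPL10A. The median WT fold stayed at 6.81 to 6.82 and the median 3A fold at 4.04 to 4.24. Members with a WT summit at a listed start numbered 35 with windows of 1 kb, 500 bp and 250 bp. With promoters cut to 100 bases before the start, CACGTG was in 0 members in place of 2, and in 5.33% of all protein-coding genes in place of 8.87%. No paired analysis was possible because each protein has 1 peak list, and no replicate could be left out for the same reason. The fewest stacked fragments were 41 at RPLP2 in WT and 49 at RPL32 in 7A; the effect of library depth was not tested.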
